A study of Mus musculus with 18 samples.

Results

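Sulfide oxidation and cysteine breakdown in the liver are described here through 8 genes: Sqor, Ethe1, Tst, Suox, Mpst, Cth, Cdo1 and Csad. They form a list of gene names drawn up with earlier results of these data known, and all 8 were found among the 54532 genes listed in each of the 2 deposited tables. The livers came from male wild-type C57BL/6J mice that entered the diets at 4 wk of age and were fasted overnight before harvest, with 1 RNA-seq library per mouse. In the first experiment, 5 mice received the control diet (Ctrl) and 5 the diet lacking 99% of its riboflavin (B2D) for 1 month. In the second, 4 mice received the control diet (Ctrl+FF) and 4 the deficient diet (B2D+FF) for 9 wk, and all 8 were gavaged daily with fenofibrate at 300 mg/kg from week 7 to week 9. The paper places a last dose, in fasted mice, 2 hr before the final blood glucose measurements. Fenofibrate is a fibrate drug that activates the nuclear receptor PPARα. The fenofibrate groups had no untreated group of the same diet length, so drug and diet length cannot be told apart, and each table was scaled on its own, so diets were tested within a table and levels in different tables are only set side by side. Each mouse contributed whole liver, and fewer cells of a type and less RNA per cell cannot be told apart.

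Riboflavin is the precursor of FAD, the bound cofactor of flavoprotein enzymes. Sqor, sulfide:quinone oxidoreductase, is such a flavoprotein of the inner mitochondrial membrane, which oxidizes hydrogen sulfide, places the sulfur on glutathione as a persulfide and hands the electrons to coenzyme Q. Its partners downstream use other cofactors. Ethe1, an iron dioxygenase, oxidizes the persulfide to sulfite, Tst, a rhodanese, transfers persulfide sulfur in thiosulfate metabolism, and Suox, a molybdenum and heme enzyme, oxidizes sulfite to sulfate. The sulfide comes largely from cysteine. Cth, which completes transsulfuration to cysteine, and Mpst, which takes sulfur from 3-mercaptopyruvate, both release sulfide or persulfide. Cdo1, cysteine dioxygenase, and Csad, cysteine sulfinate decarboxylase, instead carry cysteine to sulfinate and on to hypotaurine, the precursor of taurine. The liver is a main site of both routes.

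The genes lie at separate loci, except that Tst, on the minus strand of chromosome 15, and Mpst, on the plus strand, are divergent neighbours with 508 bases between them. Sqor (ENSMUSG00000005803) spans chr2:122765237-122809569 on the plus strand of GRCm38, the coordinates of the deposited tables. RefSeq promoter windows on GRCm38.p6, from 250 bases before to 50 after a start site, were found for 5 of the 8 genes, and those of Sqor, Ethe1 and Suox are shown because the first gene passed the test below and the others are its partners on either side of no change. Capitals mark the GC box (GGGCGG) and the CCAAT box (CCAAT), searched on both strands with overlapping matches counted.
Sqor, chr2:122771463-122771762, plus strand: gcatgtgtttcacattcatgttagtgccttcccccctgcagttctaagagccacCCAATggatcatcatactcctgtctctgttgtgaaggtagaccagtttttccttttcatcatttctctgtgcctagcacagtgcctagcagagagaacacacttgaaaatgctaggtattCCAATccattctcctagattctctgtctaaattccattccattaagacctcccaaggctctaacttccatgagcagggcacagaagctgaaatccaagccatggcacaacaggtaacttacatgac
Ethe1, chr7:24587293-24587592, plus strand: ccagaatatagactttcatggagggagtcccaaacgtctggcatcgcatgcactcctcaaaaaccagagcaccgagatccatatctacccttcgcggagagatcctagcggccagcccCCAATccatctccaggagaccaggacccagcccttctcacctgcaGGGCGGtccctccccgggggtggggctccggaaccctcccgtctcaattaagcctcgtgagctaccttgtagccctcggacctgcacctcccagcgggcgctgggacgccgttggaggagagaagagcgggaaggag
Suox, chr10:128673869-128674168, minus strand: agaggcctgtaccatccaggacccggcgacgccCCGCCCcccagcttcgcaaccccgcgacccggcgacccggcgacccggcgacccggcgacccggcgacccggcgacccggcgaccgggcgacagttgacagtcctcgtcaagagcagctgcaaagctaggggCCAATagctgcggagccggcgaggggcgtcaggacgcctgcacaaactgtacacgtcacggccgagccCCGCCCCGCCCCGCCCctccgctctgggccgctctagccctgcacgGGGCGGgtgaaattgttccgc
The Sqor window held 2 CCAAT boxes and 0 GC boxes and had a GC content of 45%, below the median of 52.7% over all windows. Its start site lay 6476 bases inside the annotated gene and in no annotated exon. The Ethe1 window shown (61.67% GC) has its start site at the gene's annotated start and held 1 box of each kind. A further Ethe1 window, chr7:24593658-24593957, with its start site in an exon 6365 bases inside the gene, held 3 GC boxes and 0 CCAAT boxes. The Suox window (73.33% GC) held 5 GC boxes and 1 CCAAT box, with its start site in an exon 155 bases inside the gene. Of all 32851 promoter windows examined, 35.66% held a GC box and 37.41% a CCAAT box. None of the 3 windows shown held the TATA box TATAAA, the nuclear receptor half-site AGGTCA, the antioxidant response core TGACNNNGC or the amino acid response core TGATGCAA, which 13.62%, 16.26%, 12.39% and 0.895% of all windows held. These matches describe letters in a window and are not binding sites.

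Between 15320729 and 21898502 reads were counted per library. Hepatocyte markers (Alb, Apoa1, Ttr, Cps1, Fgb and Tat) summed to between 19130 and 47010 FPKM per mouse, and the 5 pancreatic acinar markers were each below 0.5 FPKM in every group. Of the 5 adipocyte markers, Adipoq and Cfd stood out in 1 library, B2D 2, at 6.19 and 28.5 FPKM, against at most 0.413 and 0.732 FPKM in the other 9 mice without fenofibrate. Plin1 was at 1.24 FPKM and Lep at 0.035 FPKM in B2D 2. Cidec was at 96.9 FPKM in B2D 2 but higher, at 104.7 FPKM, in B2D 4. In the fenofibrate table, Adipoq was at 2.47 FPKM in Ctrl+FF 1, Cfd was at 6.21 to 19.6 FPKM in Ctrl+FF and lower in B2D+FF (log2 fold change -2.21, limma adjusted p = 0.0182), and Cidec was higher (0.97, limma adjusted p = 0.0187). Of the endothelial markers Lyve1 was higher in B2D+FF (0.77, limma adjusted p = 0.0294). The other 4 were below 0 and did not pass, Stab2 at -0.03, Clec4g at -0.20, Pecam1 at -0.0044 and Kdr at -0.21. The hepatocyte genes Alb and Ttr were at -0.35 and -0.34 in B2D+FF with no overlap between the groups (limma adjusted p = 0.114 and 0.104). The other 4 hepatocyte markers were above 0, Fgb at 0.01, Apoa1 at 0.30, Cps1 at 0.66 and Tat at 1.35. Of the 6, Tat alone passed the test (limma adjusted p = 0.0188). Kupffer cell markers summed to 68.7 to 89.9 FPKM in Ctrl and 51.2 to 79.4 FPKM in B2D, and all 5 had fold changes below 0, with Clec4f past the test (mean 28.7 against 20.4 FPKM, limma adjusted p = 0.0412). With fenofibrate all 5 were below 0 as well, and none passed. They summed to 58.9 to 104 FPKM in Ctrl+FF and 37 to 73.5 FPKM in B2D+FF, and Clec4f was at -0.62 (limma adjusted p = 0.108). All 5 erythroid markers also had fold changes below 0 in both comparisons, with Alas2 past the test without fenofibrate (-1.36, limma adjusted p = 0.0114) and with it (-1.37, limma adjusted p = 0.000918), and summed to 184 to 249.7 FPKM in Ctrl, 91.2 to 392 FPKM in B2D, 437 to 629.7 FPKM in Ctrl+FF and 284 to 689.6 FPKM in B2D+FF. The part of these cells in the results below was not tested.

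Cysteine dioxygenase was by far the most abundant of the 8 transcripts and Sqor and Ethe1 were the least. FPKM divides the fragments of a gene by its length and the size of the library, so genes can be ranked within a table. In Ctrl livers Cdo1 averaged 1023 ± 153 FPKM (SD, n = 5), Cth 287 ± 86.8 and Csad 69.8 ± 36.2 FPKM. Tst, Suox and Mpst followed at 54.8 ± 6.37, 51.6 ± 3.30 and 50.2 ± 7.24 FPKM, and Sqor and Ethe1 were lowest at 25.0 ± 1.98 and 9.96 ± 1.99 FPKM. The order of means was the same in B2D. In both groups the ranges of neighbours in the order from Csad through Tst and Suox to Mpst overlapped, whereas Cdo1 lay above Cth, Cth above Csad and Mpst above Sqor in every mouse with no overlap. Sqor and Ethe1 did not overlap in Ctrl but did in B2D, where Sqor was above Ethe1 in 4 of 5 mice. In Ctrl+FF Suox moved above Tst, with no overlap, and in B2D+FF the mean of Ethe1, 20.9 FPKM, lay above that of Sqor, 18.7 FPKM, although their ranges overlapped and Ethe1 was the higher in 2 of 4 mice.

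The spread between mice of a diet also differed among the genes. In Ctrl the coefficient of variation was 6.39% for Suox and 7.95% for Sqor but 30.2% for Cth and 51.9% for Csad, and Csad ran from 33.3 to 127 FPKM in that group. The Csad exons share 278 bases, 7.26% of their length, with Zfp740 on the opposite strand (mean 4.86 and 4.46 FPKM in the 2 tables), and those of Ethe1 share 99 bases, 6.67%, with Zfp575, listed at 0. Whether counting used the strand is not given in the sources used here, so reads in those bases cannot be assigned between the partners.

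**Figure D1:**
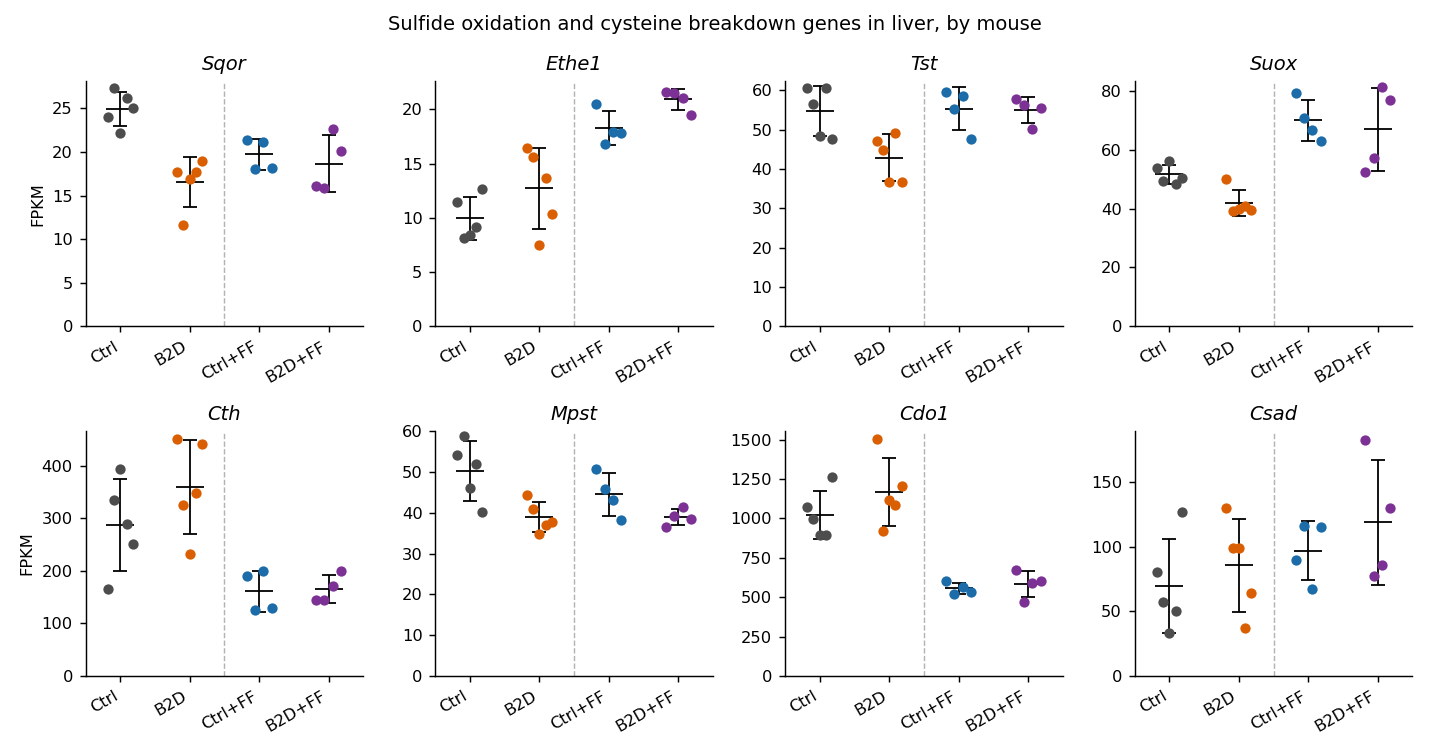
Levels of the 8 genes in each liver, as FPKM from 0 on separate vertical axes, by group on the horizontal axis. Points are mice (5, 5, 4 and 4), bars are the mean ± SD, and the dashed line parts the 2 separately scaled tables. Sqor is the only gene whose Ctrl and B2D points do not overlap.

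Under riboflavin deficiency, Sqor transcript was lower in every B2D liver than in any Ctrl liver. The Ctrl mice stood at 23.97, 27.35, 22.21, 26.17 and 25.07 FPKM and the B2D mice at 17.75, 11.61, 16.89, 17.65 and 18.96 FPKM. The highest B2D mouse was thus below the lowest Ctrl mouse, and B2D 2 was well below the rest of its group. Behind these values were 809 to 2141 reads. On the log2(FPKM + 1) scale, on which all fold changes below are given and which understates those of low genes, Sqor fell by 0.58 (SE 0.128, 95% interval -0.86 to -0.30), to 0.67 times the Ctrl level (limma adjusted p = 0.0367 over 11574 genes). This was the 1 gene of 8, 12.5%, past the adjusted threshold of 0.05, against 2.70% of all genes tested. It was also the 1 gene of 8 whose groups did not overlap, against 4.98% of all genes. Without B2D 2, the library with adipocyte transcripts, Sqor fell by 0.46 with an adjusted p of 0.0419 from limma. The call held in 4 of the 10 limma fits that left out a library and was lost without Ctrl 1 (adjusted p = 0.0758), Ctrl 2 (0.103), Ctrl 4 (0.105), Ctrl 5 (0.0636), B2D 3 (0.0578) or B2D 4 (0.066), while the log2 fold change stayed between -0.63 and -0.46.

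The other sulfide enzymes did not pass the threshold, and they did not share a direction. Tst, the rhodanese, ranged from 47.58 to 60.64 FPKM in Ctrl and from 36.62 to 49.06 FPKM in B2D, with 2 Ctrl mice within the B2D range. Its log2 fold change was -0.35 (SE 0.122, limma adjusted p = 0.161). Suox, the sulfite oxidase, stood at 53.75, 49.35, 56.29, 48.37 and 50.44 FPKM in Ctrl and at 49.92, 39.16, 39.79, 40.96 and 39.58 FPKM in B2D. Only B2D 1 reached into the Ctrl range, and the log2 fold change was -0.30 (SE 0.0988, limma adjusted p = 0.138).

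Ethe1, the persulfide dioxygenase, had the opposite sign. It stood at 11.48, 8.18, 8.37, 9.13 and 12.63 FPKM in Ctrl and at 16.43, 15.59, 7.49, 13.71 and 10.38 FPKM in B2D. The B2D group thus held both the highest mice and the lowest, and the log2 fold change of 0.29 (SE 0.197, limma adjusted p = 0.442) was within this spread.

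The enzymes that release sulfur from cysteine also parted. Mpst, the mercaptopyruvate sulfurtransferase beside Tst, ranged from 40.23 to 58.89 FPKM in Ctrl and from 34.80 to 44.23 FPKM in B2D, and its log2 fold change of -0.35 (SE 0.119, limma adjusted p = 0.149) was close to that of Tst. Cth, cystathionine γ-lyase, ranged from 165 to 395 FPKM in Ctrl and from 232 to 451 FPKM in B2D, with a log2 fold change of 0.34 (SE 0.240, limma adjusted p = 0.466). The Cth interval, from -0.18 to 0.86, leaves room for a change in either direction.

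The taurine branch had fold changes above 0 that did not pass the test. Cdo1 ranged from 894 to 1263 FPKM in Ctrl and from 917 to 1504 FPKM in B2D (log2 fold change 0.18, SE 0.149, limma adjusted p = 0.545). Csad ranged from 33.33 to 127.0 FPKM and from 36.78 to 130.4 FPKM (log2 fold change 0.32, SE 0.375, limma adjusted p = 0.689), almost the same span on both diets. B2D 1 was the highest B2D mouse for Ethe1, Suox, Cth, Mpst, Cdo1 and Csad, but not for Sqor or Tst.

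Counted together, 4 of the 8 genes had fold changes below 0 (Sqor, Tst, Suox and Mpst) and 4 above, with a median log2 fold change of -0.06 against -0.0013 over all genes tested. The 4 below 0 were also those at an unadjusted p under 0.05, 50% of the 8 against 18.4% of all genes. Genes with a mean of 10 to 100 FPKM, the range of these 4, had a median of -0.07 (n = 2508), and after quantile normalization that median was 0.0067. The log2 fold changes were then -0.50 for Sqor (limma adjusted p = 0.0479), -0.25 for Tst (0.263), -0.25 for Mpst (0.272) and -0.18 for Suox (0.372).

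With fenofibrate, the Sqor groups overlapped. The Ctrl+FF mice stood at 21.38, 18.08, 21.19 and 18.18 FPKM and the B2D+FF mice at 16.13, 15.81, 22.64 and 20.12 FPKM. B2D+FF held the highest mouse and the lowest, with 2 mice below every Ctrl+FF mouse. Sqor's log2 fold change was -0.08 (SE 0.127, limma adjusted p = 0.748), with a 95% interval from -0.37 to 0.20. The Ctrl+FF mean of 19.7 ± 1.83 FPKM (SD, n = 4) stood beside 25.0 FPKM in Ctrl and 16.6 ± 2.87 FPKM (SD, n = 5) in B2D, values that come from different tables and were not tested against each other.

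None of the 8 genes passed the threshold in this comparison by limma, with or without voom, against 4.45% of the 11878 genes tested, and none had groups without overlap, against 14.3%. At an unadjusted p under 0.05 there was 1 gene, Ethe1, 12.5% of the 8 against 21.2% of all genes. Ethe1 stood at 20.49, 16.83, 17.87 and 17.77 FPKM in Ctrl+FF and at 21.60, 21.50, 21.04 and 19.50 FPKM in B2D+FF, so that 3 of the 4 deficient mice lay above every control and 1 did not (log2 fold change 0.19, SE 0.0842, limma adjusted p = 0.236).

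Tst and Suox had fold changes near 0 with fenofibrate. Tst ranged from 47.63 to 59.67 FPKM in Ctrl+FF and from 50.13 to 57.76 FPKM in B2D+FF (log2 fold change -0.0080, 95% interval -0.23 to 0.21). Suox stood at 79.24, 70.93, 66.68 and 63.17 FPKM in Ctrl+FF and at 52.62, 57.35, 81.22 and 76.91 FPKM in B2D+FF (log2 fold change -0.08, SE 0.152, limma adjusted p = 0.805). For Suox as for Sqor, B2D+FF 1 and B2D+FF 2 were below every Ctrl+FF mouse and B2D+FF 3 was above them all.

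Mpst was between 38.33 and 50.79 FPKM in Ctrl+FF and between 36.54 and 41.29 FPKM in B2D+FF (log2 fold change -0.18, SE 0.0999, limma adjusted p = 0.332). Cth (log2 fold change 0.05), Cdo1 (0.07) and Csad (0.24, SE 0.281) had limma adjusted p-values of 0.905, 0.807 and 0.676. Their ranges overlapped broadly, from 125.8 to 199 FPKM against 145 to 201 FPKM for Cth, from 522 to 605 FPKM against 471 to 670 FPKM for Cdo1, and from 67.6 to 116 FPKM against 77.1 to 183 FPKM for Csad. The median log2 fold change of the 8 genes was 0.02, against 0.01 over all genes tested.

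**Figure D2:**
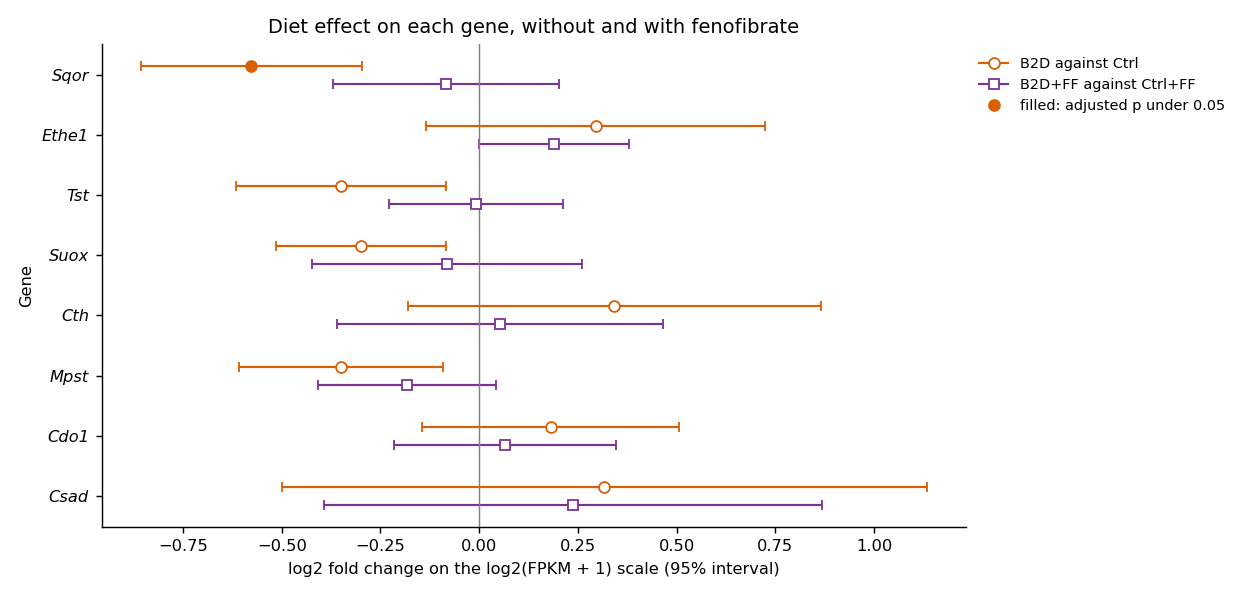
Diet effect on each gene (vertical axis) as the log2 fold change on the log2(FPKM + 1) scale with its 95% interval (horizontal axis), for B2D against Ctrl (circles) and B2D+FF against Ctrl+FF (squares). Filled symbols passed an adjusted p of 0.05, which was the case for Sqor without fenofibrate alone. The squares of Sqor, Tst, Suox, Cth and Cdo1 lie near 0, with intervals that reach to both sides of it.

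A contrast in 1 limma fit of all 18 libraries and 11031 genes asked whether the diet effect itself differed with fenofibrate. For Sqor the effect with fenofibrate minus that without was 0.49 (SE 0.185, 95% interval 0.10 to 0.88, adjusted p = 0.298), and for Tst it was 0.34 (SE 0.159, adjusted p = 0.411). None of the 8 passed, against 0.145% of all genes, and these 2 were at an unadjusted p under 0.05, 25% of the 8 against 11.9% of all genes. A difference of the Sqor response between the experiments is therefore not shown at this threshold. The contrasts of the other 6 genes ranged from -0.29 (Cth) to 0.22 (Suox).

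Sqor was then set against each downstream partner within a mouse, as the log2 ratio of (FPKM + 1). A factor shared by both genes of a library cancels only roughly in this ratio, because 1 is added to each level. Relative to Ethe1, the Ctrl mice had a mean log2 ratio of 1.26 ± 0.290 (SD, n = 5). The B2D mice averaged 0.39 ± 0.581 (SD, n = 5). The ratio ranged from 0.94 to 1.63 in Ctrl and from -0.40 to 1.08 in B2D, so the groups overlapped slightly, and B2D 2 was the only mouse of that table with less Sqor than Ethe1. The difference of -0.87 had an exact two-sided permutation p of 0.0238, or 0.143 after Benjamini-Hochberg adjustment over the 6 ratio tests. Relative to Suox the difference was -0.28 (exact permutation p = 0.0873, adjusted 0.262) and relative to Tst -0.23 (exact permutation p = 0.238, adjusted 0.357). Without B2D 2 these differences were -0.68 for Ethe1, -0.18 for Suox and -0.09 for Tst. With fenofibrate the differences were -0.27 for Ethe1, -0.08 for Tst and -0.0039 for Suox (exact permutation p = 0.2, 0.743 and 0.971), in a design of 4 against 4 whose smallest possible p is 0.0286. None of the 6 ratios passed after adjustment.

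**Figure D3:**
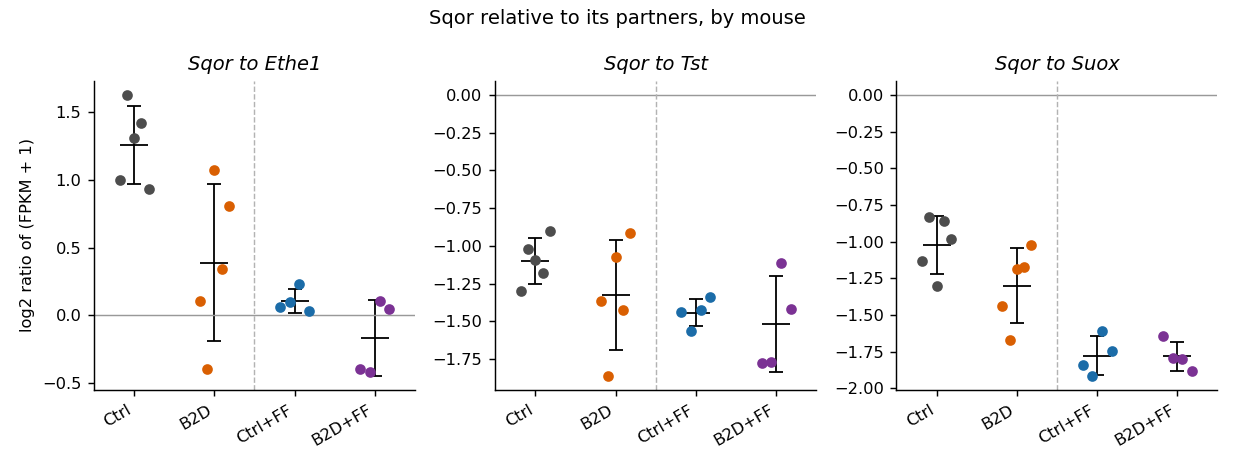
Sqor relative to Ethe1, Tst and Suox in each mouse, as the log2 ratio of (FPKM + 1) on the vertical axis and the group on the horizontal axis. Points are mice and bars the mean ± SD. The Sqor to Ethe1 ratio averaged 1.26 in Ctrl and 0.39 in B2D, and values around 0 with fenofibrate mean about equal levels.

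The genes whose levels ran closest to Sqor were sought across the 18 mice among 9736 named protein-coding genes, after subtracting the mean of each table. As a description across mice that share the diet difference, Pearson's r was 0.942 for Galm (galactose mutarotase), 0.939 for Sephs2 (selenophosphate synthetase), 0.929 for Upb1 (β-ureidopropionase of pyrimidine breakdown) and 0.920 for Sord (sorbitol dehydrogenase). Among its own partners r was 0.709 for Suox, 0.614 for Mpst and 0.50 for Tst, 0.011 for Cdo1, -0.068 for Cth and -0.300 for Csad, and -0.456 for Ethe1. The pathway's genes thus spread from rank 295 (Suox) to rank 8587 (Ethe1) of the 9736 in likeness to Sqor.

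Around these enzymes, 9 lists held 63 genes of connected pathways, and 54 of them were tested without fenofibrate. None passed the threshold in B2D against Ctrl by limma on log2(FPKM + 1), and with voom on the recovered reads 2 did, Gphn (adjusted p = 0.0441) and Kyat1 (0.0469), both lower, which is 3.70% against 3.48% of all genes by voom. By limma 15 were at an unadjusted p under 0.05 (10 lower and 5 higher), 27.8% against 18.4% of all genes. Of the 54, 31 had fold changes below 0 and 23 above, with a median of -0.02. Of the enzymes feeding the pathway, Cbs, the first step of transsulfuration, averaged 88.0 ± 9.80 FPKM in Ctrl and 107 ± 27.0 in B2D (log2 fold change 0.24, limma adjusted p = 0.456). Got1, which can transaminate cysteine toward 3-mercaptopyruvate, averaged 173 ± 83.7 and 317 ± 104 FPKM (log2 fold change 0.97, limma adjusted p = 0.160), and its groups overlapped. The 3 genes listed under synthesis of the molybdenum cofactor, which Suox uses, had fold changes below 0, and this list does not hold the whole pathway. Among them Gphn, whose groups did not overlap, was at -0.54 (17.3 ± 0.916 against 11.8 ± 2.80 FPKM, limma adjusted p = 0.068) and Mocs2 at -0.27.

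Glutathione is the persulfide acceptor of Sqor, and of the 8 tested genes of its synthesis and breakdown 6 had fold changes below 0 and 2 above. Chac2, which degrades glutathione, was furthest from 0 at -0.74 (19.4 ± 4.64 against 11.5 ± 3.79 FPKM, limma adjusted p = 0.101). Gclc and Gclm, the subunits of the rate-limiting ligase, were at -0.39 and -0.29 (limma adjusted p = 0.400 and 0.239). Ado, the other thiol dioxygenase, was at -0.0040 and Fmo1, which oxidizes hypotaurine to taurine, at 0.17 (limma adjusted p = 0.988 and 0.631). Of the 5 tested flavoproteins that like Sqor feed electrons to coenzyme Q, none passed and the signs were mixed. Etfdh was at 0.30 (68.2 ± 9.91 against 84.0 ± 9.81 FPKM, limma adjusted p = 0.212), Gpd2 at 0.53 (limma adjusted p = 0.117) and Sdha at 0.09, whereas Prodh was at -0.51 (limma adjusted p = 0.132) and Dhodh at -0.15. Slc7a11, the cystine antiporter, was at most 0.00842 FPKM in any mouse and was not tested. The name Choldh matched no listed gene, so the gene meant by it was not analysed here.

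With fenofibrate, 7 of the 56 tested pathway genes passed, 12.5% against 4.45% of all genes, and in each the groups did not overlap. Higher in B2D+FF were Tat, a tyrosine aminotransferase (299 ± 84.7 against 751 ± 181 FPKM, log2 fold change 1.35, limma adjusted p = 0.0188), and Got1 (126.4 ± 35.9 against 309 ± 61.8 FPKM, log2 fold change 1.31, limma adjusted p = 0.0179). Also higher were Slc3a2, the heavy chain of several amino acid transporters (0.72, limma adjusted p = 0.0239), and Gss, glutathione synthetase (0.51, limma adjusted p = 0.0182). Lower were Slc1a4, a neutral amino acid transporter (-0.63, limma adjusted p = 0.0246), Chac2 (-0.56, limma adjusted p = 0.0182), and Kyat1, a kynurenine aminotransferase that can also act on cysteine conjugates (-0.46, limma adjusted p = 0.0258). Without fenofibrate Tat was at 0.76, Got1 at 0.97, Slc3a2 at 0.16, Gss at -0.18, Chac2 at -0.74 and Kyat1 at -0.66. None of these passed by limma there, and Slc1a4 was not tested. Of the named genes that did not pass, Cbs was at 0.13, Gclc at -0.26, Gclm at -0.14, Ado at 0.0091, Fmo1 at -0.19 and Etfdh at 0.17 on the same scale. In the contrast between the experiments 0 of 54 tested pathway genes passed in limma and 0 with voom, with 7 at an unadjusted p under 0.05 (13.0% against 11.9% of all genes), so no pathway gene was shown to respond to the diet differently in the 2 experiments.

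**Figure D4:**
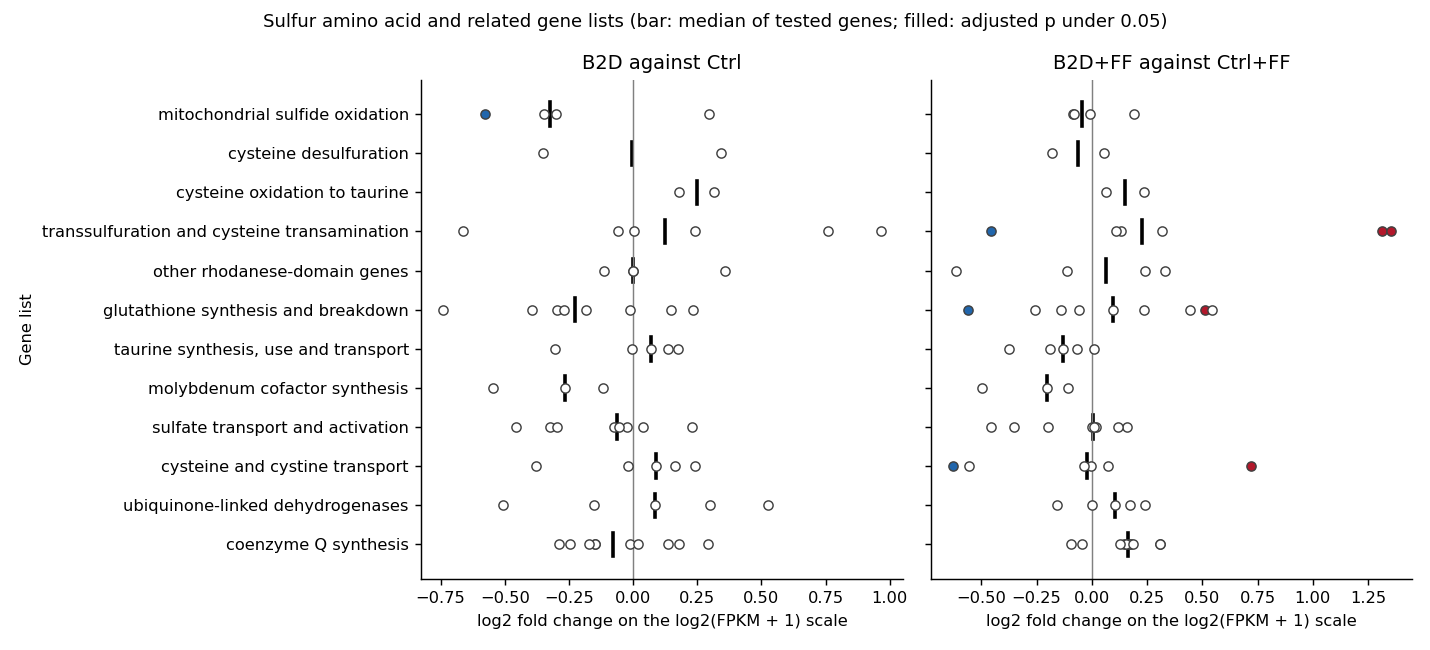
Log2 fold change on the log2(FPKM + 1) scale (horizontal axes) of each tested gene in the 3 groups of sulfide and cysteine enzymes and 9 connected lists (vertical axis), for B2D against Ctrl (left) and B2D+FF against Ctrl+FF (right). Points are genes, bars list medians, and filled points passed an adjusted p of 0.05: Sqor on the left and 7 pathway genes, led by Tat and Got1, on the right.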

How the data were processed

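Liver RNA of 18 mice was sequenced as mRNA libraries with paired ends. The authors mapped the reads to mm10 with STAR, assigned them to genes with featureCounts and deposited 1 table of FPKM values and gene lengths per experiment, which the methods call RPKM. Versions, and whether counting used the strand, are not given in the sources used here. FPKM times gene length was a whole multiple of 1 step for 100% of values (tolerance 0.0001), which gave reads per gene and depth. Genes with few reads are the least precise.

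Within each table, limma 3.58.1 (trend, R 4.3.3) was run on log2(FPKM + 1) for every gene averaging 0.5 FPKM or more, with Benjamini-Hochberg adjustment over all genes tested. The contrast of the experiments used all libraries in 1 fit. Ratios were tested by exact two-sided permutation in SciPy 1.17.1 under Python 3.11.15. Alternatives tried were a 0.1 pseudocount, no expression filter or one at 5 FPKM, upper-quartile (percentile 75) and quantile rescaling, array weights, voom on the recovered reads, 1 fit of all groups, and each library left out. The code was tested on simulated data. Promoters came from RefSeq (GRCm38.p6), exons from GENCODE, and Cdo1 sequence was not used.

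Named are the 8 genes, the pathway genes past the threshold, Cbs, Got1, Gclc, Gclm, Ado, Fmo1, Slc7a11 and Etfdh whatever their result, and the 5 genes most like Sqor, of which 1 is not reported here, with Gphn, Mocs2, Choldh, Gpd2, Sdha, Prodh, Dhodh, Kyat1 without fenofibrate and the cell markers named after their values were seen. The 8 genes and the lists were chosen with earlier results of these data known. Mice were numbered within each group in accession order.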

Additional observations from a re-analysis of the deposited data

Results flagged for a closer look

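Of 32 sets of FPKM values (8 genes in 4 groups), 2 held a mouse far from the rest of its group by Dixon's 95% criterion, which chance alone meets in about 1 of 20 sets. Sqor in B2D 2 was at 11.61 FPKM, with the next mouse at 16.89 FPKM, a gap of 0.719 of the group's range. The same library held the adipocyte transcripts Adipoq and Cfd at 6.19 and 28.5 FPKM, whose part in the value was not tested, and Sqor still fell by 0.46 on the log2 scale without it (limma adjusted p = 0.0419). Suox in B2D 1 was at 49.92 FPKM, with the next mouse at 40.96 FPKM, a gap of 0.833 of the range. Without B2D 1, the log2 fold change of Suox stood at -0.36 (limma adjusted p = 0.0627).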

How the results depend on the processing

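In B2D against Ctrl, 313 genes passed, against 67 with no filter on low FPKM, 727 with all 4 groups in 1 fit and 98 to 332 with 1 library left out. Of the 8 genes, 1 passed, against 0 with no filter (Sqor adjusted p = 0.0927 by limma) and 0 to 1 with 1 library left out. The lower count without a filter comes with more genes tested, and the cause of the other shifts was not tested. Sqor kept its sign under all 18 alternatives, from -0.63 to -0.46, and its adjusted p was between 0.00925 and 0.105 by limma. The other 7 genes kept their sign without fenofibrate and did not pass under any of the 18. Of their values, 4 moved by over 1.5 times with 1 library left out, Csad (0.32) to 0.09 without Ctrl 3, 0.14 without B2D 1, 0.57 without Ctrl 5 and 0.59 without B2D 4, Cth (0.34) to 0.16 without Ctrl 1, Cdo1 (0.18) to 0.08 without B2D 1, and Ethe1 (0.29) to 0.20 without B2D 1 and 0.46 without B2D 3. Quantile normalization moved Suox (-0.30) to -0.18 and Cdo1 to 0.32. In B2D+FF against Ctrl+FF, 529 genes passed, against 272 with no filter, 885 with array weights and 175 to 596 with 1 library left out. The contrast called 16 genes, against 6 at a mean FPKM of at least 5, 112 with array weights and 8 to 44 with 1 library left out. In both, 0 of the 8 genes passed under every alternative. With fenofibrate some small effects changed sign when 1 library was left out, namely Tst (-0.077 to 0.034), Cth (-0.056 to 0.163), Suox (-0.18 to 0.026) and Cdo1 (-0.0037 to 0.17), as did the Csad contrast (-0.35 to 0.15) and the ratios of Sqor to Tst (-0.21 to 0.0096) and to Suox (-0.050 to 0.052, and 0.013 after quantile normalization). The cause was not tested. No paired analysis was possible because the mice carry no number shared between groups in the labels.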
